A study of Mus musculus with 4 samples.

Results

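The unfolded protein response of lung ILC2s was examined through 36 genes, which were taken from the deposited table of 22554 genes by their symbols and of which all 36 were found and passed the filter on low counts. The genes encode 15 chaperones and folding enzymes of the endoplasmic reticulum (ER), 7 proteins of ER-associated degradation, 3 stress sensors with the transcription factor XBP1, and 10 genes of the ATF4 arm. ILC2s, or group 2 innate lymphoid cells, were sorted from the lungs of wild-type BALB/c mice aged 6 weeks. Per the labels, all cultures received IL-2, IL-7 and IL-33 overnight, so that both groups were activated. The paper states a different culture time. Each culture held either vehicle or compound 5D, an inhibitor of the Orai channels, which let calcium into a cell when the store in its ER runs low. RNA was sequenced from 2 libraries per group, labeled Control 1 and 2 and Compound 5D 1 and 2. The labels do not say whether these came from separate mice, so p-values measure the spread between these libraries, which may be technical.

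Proteins that are to be secreted fold inside the ER, where chaperones such as BiP need a high calcium concentration. When unfolded proteins build up, the membrane sensors IRE1, ATF6 and PERK respond: IRE1 splices the mRNA of XBP1, ATF6 is cut to release a transcription factor, and PERK phosphorylates eIF2α, which favors the translation of ATF4. XBP1 and ATF6 induce chaperones and degradation factors, while ATF4 induces genes of amino acid supply and, through CHOP, of cell death. Emptying the ER of calcium is a classical trigger of this response, and cytokine-secreting lymphocytes such as ILC2s depend on a well-stocked ER. Gene counts give mRNA levels only, and show neither the splicing of Xbp1 mRNA nor the phosphorylation of eIF2α.

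The libraries held 20096555 to 28697265 estimated counts. All 12 ILC2 markers examined, among them Gata3, Il1rl1 and Il5, lay above 10 on the counts-per-million (CPM) scale, and their summed level was 11848 to 11951 normalized CPM with vehicle and 10998 to 11492 with 5D. Normalized CPM are CPM after upper-quartile scaling of the libraries. Markers of B and plasma cells, which have a large ER of their own, summed to 17.9 to 23.4 normalized CPM with vehicle and 17.4 to 19.8 with 5D over the 5 of 9 that were found among the deposited genes. Of the T cell markers 6 of 7 were found, of the NK cell and ILC1 markers 4 of 5, and of the myeloid markers 8 of 10. For mast cells, basophils and eosinophils 5 of 7 were found, and for epithelium, stroma and endothelium 8 of 9. T cell markers summed to 190 to 199 with vehicle and 200 to 206 with 5D with Cd4 at 0, myeloid markers to 3.36 to 7.60 and 4.65 to 4.97, and NK cell and ILC1 markers to 1.35 to 1.94 and 0.405 to 1.5. Mast cell, basophil and eosinophil markers summed to 62.4 to 73.0 and 61.4 to 64.7, epithelial, stromal and endothelial markers to 46.8 to 49.9 and 43.5 to 45.5, and red cell markers to 4.80 to 4.87 and 3.92 to 4.02. Most of the T cell sum came from Trbc2, with a mean of 172 over the 4 libraries, and most of the mast cell sum from Kit, with 61. The part of other cells in the results was not tested, and fewer cells of a type cannot be told apart from less RNA per cell.

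With vehicle alone, activated ILC2s carried several ER chaperones among their most abundant transcripts. The 36 genes together summed to 12311 and 12317 normalized CPM with vehicle, and to 11824 and 12234 with 5D. The 15 chaperones and folding enzymes alone summed to 9822 and 9864 normalized CPM with vehicle and 9399 and 9803 with 5D. Levels between genes were compared as normalized CPM per kb of exon. On this scale Pdia3, the oxidoreductase that works with calreticulin and calnexin on glycoproteins, was the highest of the 36, at 471 and 467 with vehicle and at 461 and 485 with 5D. It was followed by Calr, the calcium-binding lectin calreticulin, at 387 to 408 over the 4 libraries, by Hsp90b1, the ER form of HSP90, at 341 to 385, and by Hspa5, which encodes BiP, at 302 to 315. The ranges of these 4 genes did not overlap. P4hb, a protein disulfide isomerase, Pdia6, a further member of that family, and Sdf2l1, a cofactor of BiP, came next at 227 to 254, 225 to 237 and 222 to 234 normalized CPM per kb, and could not be ranked beyond the spread between libraries. Of all genes tested with a known length, these 7 lay at the 98.7th percentile or above.

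**Figure D1:**
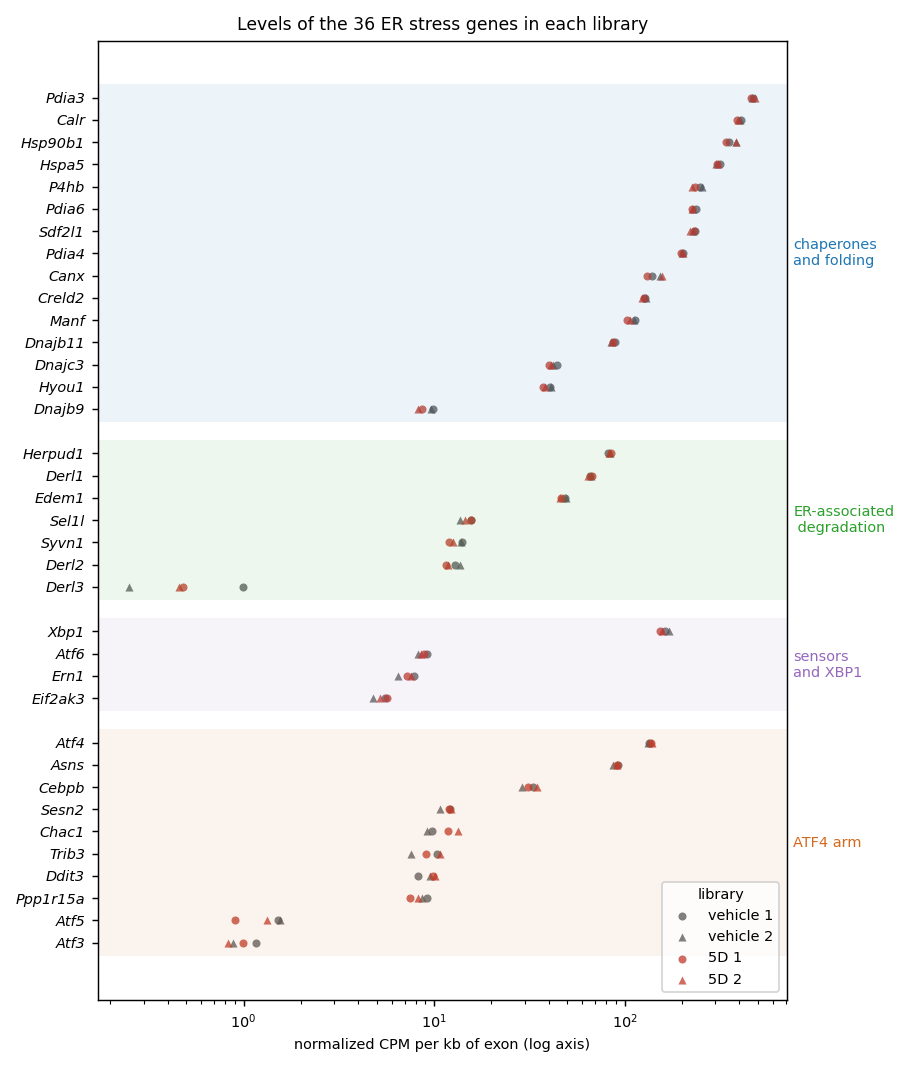
Level of each of the 36 genes in each of the 4 libraries, as normalized CPM per kb of exon on a log axis, grouped by role and ordered by level. Grey points are the vehicle libraries and red points the 5D libraries. Circles are replicate 1 and triangles replicate 2. The levels run from under 1 for Derl3 to 485 for Pdia3, and the colors lie on top of each other for most genes.

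Within the other roles the levels were spread widely. Among the degradation genes, Herpud1, a scaffold of the ubiquitin ligase complex, reached 81.3 to 85.2 normalized CPM per kb, and Derl1, a channel-like derlin, 64.7 to 67.7, whereas its relative Derl3 had 46 and 10 counts with vehicle and 26 and 26 with 5D. Xbp1 was at 153 to 171 normalized CPM per kb, well above the sensors Atf6 at 8.24 to 9.18, Ern1 (IRE1) at 6.46 to 7.86 and Eif2ak3 (PERK) at 4.78 to 5.67. Of the ATF4 arm, Atf4 itself was at 133 to 140 and the asparagine synthetase gene Asns at 87.1 to 92.9. The stress-induced members Ddit3 (CHOP), Trib3, a pseudokinase that restrains ATF4 and CHOP, and Chac1, which degrades glutathione, lay between 7.55 and 13.4. Atf3 and Atf5, a pair of further stress-induced factors, were the lowest of the arm at 0.828 to 1.55 normalized CPM per kb.

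Some promoters of the members share short motifs. RefSeq promoter windows on GRCm38.p6, the assembly that mm10 names, reach from 250 bases before to 50 bases after a start site, and were at hand for 32 of the 36 genes, all but Atf6, Derl1, Hyou1 and Manf. The ER stress response element (ERSE), CCAAT and CCACG with 9 bases between them, is a textbook site of ATF6 and NF-Y, searched on both strands as an exact match. It was found in 9 of the 32 members, or 28.1%, and in 37 of all 27025 genes, or 0.137%, with these 9 among them. Since ATF6 is known to induce such genes, the shares describe the list and test nothing. In all, 10 matches were found, since Hsp90b1 had 2. They are shown because 7 of these 9 genes encode chaperones or folding enzymes, with the fixed letters in capitals and the spacer in lower case:
Hspa5 (chr2:34772025-34772043, plus strand): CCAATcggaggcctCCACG
Hsp90b1 (chr10:86705638-86705656, minus strand): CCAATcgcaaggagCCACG
Hsp90b1 (chr10:86705533-86705551, plus strand): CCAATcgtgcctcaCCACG
Calr (chr8:84847075-84847093, plus strand): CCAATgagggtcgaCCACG
Canx (chr11:50325800-50325818, minus strand): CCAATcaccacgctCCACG
Pdia6 (chr12:17266491-17266509, plus strand): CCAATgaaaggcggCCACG
Dnajc3 (chr14:118937827-118937845, plus strand): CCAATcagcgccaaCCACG
Creld2 (chr15:88819520-88819538, minus strand): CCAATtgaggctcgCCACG
Syvn1 (chr19:6046532-6046550, plus strand): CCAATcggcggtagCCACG
Derl3 (chr10:75893242-75893260, minus strand): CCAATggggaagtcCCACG
The spacer differed in all 10, while the 9 genes range from the highly abundant Hsp90b1 to Derl3 with its few counts.

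The promoter of Hspa5, the gene by which this response is usually read, is shown with those of Hsp90b1, which holds a pair of matches, and of Syvn1, which encodes the ubiquitin ligase HRD1 and whose libraries did not overlap between the groups. Each run holds the 250 bases before the start site, 5′ to 3′ on the strand of the gene, with the fixed letters of ERSE in capitals:
Hspa5 (chr2:34771840-34772089, plus strand): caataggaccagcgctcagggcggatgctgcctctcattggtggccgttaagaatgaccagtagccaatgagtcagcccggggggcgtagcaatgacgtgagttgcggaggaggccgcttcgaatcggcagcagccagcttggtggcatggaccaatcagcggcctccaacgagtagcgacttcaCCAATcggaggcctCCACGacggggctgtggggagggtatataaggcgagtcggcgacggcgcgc
Hsp90b1 (chr10:86705445-86705694, minus strand): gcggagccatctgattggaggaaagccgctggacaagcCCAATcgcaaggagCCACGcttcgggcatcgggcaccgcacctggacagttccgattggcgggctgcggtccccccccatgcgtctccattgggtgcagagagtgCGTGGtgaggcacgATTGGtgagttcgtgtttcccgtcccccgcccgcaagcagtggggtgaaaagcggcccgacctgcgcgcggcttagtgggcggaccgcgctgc
Syvn1 (chr19:6046326-6046575, plus strand): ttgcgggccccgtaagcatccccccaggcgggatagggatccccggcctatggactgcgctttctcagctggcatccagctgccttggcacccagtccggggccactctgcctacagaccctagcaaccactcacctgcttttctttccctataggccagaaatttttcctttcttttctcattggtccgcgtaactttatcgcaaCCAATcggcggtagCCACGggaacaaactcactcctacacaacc
The match lay 65 to 47 bases before the RefSeq start site in Hspa5 and 44 to 26 bases before it in Syvn1. Start sites differ between annotations. The GENCODE gene of Hspa5 used for counting begins upstream, at 34771970, so that the match lies inside it. For Hsp90b1 the GENCODE gene reaches to 86705509, which takes in part of the printed run but neither match.

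Among the other motifs searched, the shorter ERSE-II, ATTGG and CCACG with 1 base between them, was found in Herpud1 and Dnajb11, and in 12 of the 27025 genes. The site TGACGTGG, known as UPRE and bound by XBP1 and ATF6, was found in 0 of the 32 members and in 0.714% of all genes. The CARE motif, TGATGNAAN, through which ATF4 with a C/EBP partner acts, was found in 5 members, Atf3, Trib3, Chac1, Asns and Herpud1, which is 15.6% of the members and compares with 4.50% of all genes. None of the 17 matches overlapped another. The promoter of Chac1 is shown in the same way because this gene was the member of the ATF4 arm with an unadjusted p-value under 0.05 in the test against vehicle, with the fixed letters of CARE, read on the opposite strand, in capitals:
Chac1 (chr2:119350992-119351241, plus strand): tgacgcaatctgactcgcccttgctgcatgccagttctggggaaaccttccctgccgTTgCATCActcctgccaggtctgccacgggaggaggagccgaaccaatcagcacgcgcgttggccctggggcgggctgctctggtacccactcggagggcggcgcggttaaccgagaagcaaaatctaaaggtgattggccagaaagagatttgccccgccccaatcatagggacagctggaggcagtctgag
A match is a description of the sequence and does not show that a factor was bound in these cells.

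**Figure D2:**
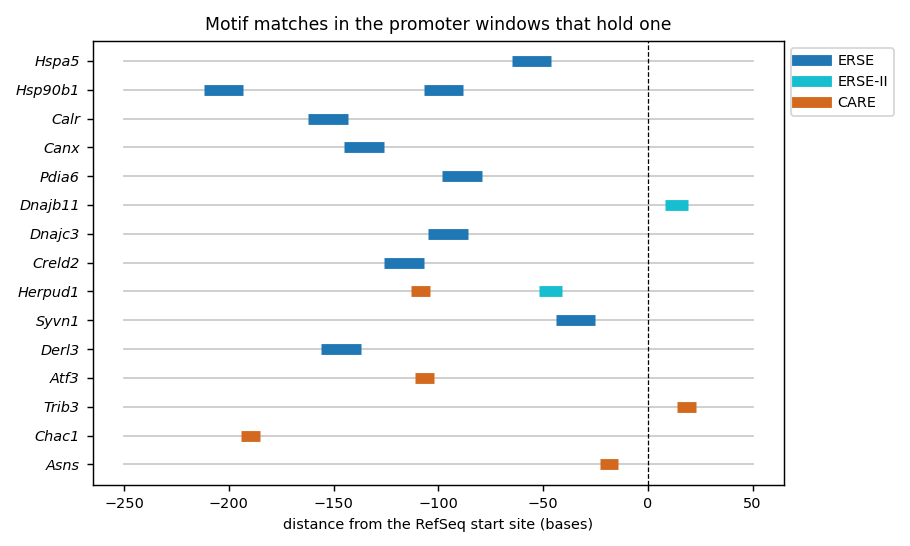
Positions of the motif matches in the promoter windows of the 15 members that hold any, in bases from the RefSeq start site (dashed line). Dark blue bars are ERSE, light blue bars ERSE-II and orange bars CARE. The ERSE matches all lie before the start site, and Hsp90b1 is the gene with 2 of them.

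The comparison of 5D with vehicle asked how blocking Orai channels moved this program. None of the 36 genes passed an adjusted p-value of 0.05 in the quasi-likelihood test of edgeR, adjusted by Benjamini-Hochberg across 17651 genes, and 0 passed in DESeq2 or limma-voom either. Over all genes tested, 0.0283% were called higher and 0.068% lower. At an unadjusted p-value under 0.05, 5 of the 36 were lower (P4hb, Hyou1, Derl2, Syvn1 and Xbp1) and 1 was higher (Chac1), which is 13.9% and 2.78% beside 3.84% and 3.5% of all genes tested. The median standard error was 0.054 for the 36 genes and 0.188 over all genes tested. Smaller changes could therefore reach the threshold among the 36, and the shares are not compared at like precision. Leaving out vehicle replicate 2 took the lower count to 0, leaving out 5D replicate 1 to 1, and leaving out vehicle replicate 1 to 3. In such a fit the lone library of its group is assumed to vary like the others, since the spread comes from the group with 2 libraries. The higher count was 0 without 5D replicate 2 and 2 without vehicle replicate 1. The median log2 fold change of the 36 genes was -0.024, beside -0.0016 over all genes tested, and 24 of them had a negative and 12 a positive value. The median of the 36 was -0.0084 without vehicle replicate 1, -0.059 without vehicle replicate 2 and -0.043 without 5D replicate 1. The 5D libraries were both lower than the vehicle libraries for 14 of the 36 genes and both higher for 3, or 38.9% and 8.33%, beside 18.8% and 18.7% of all genes. The smallest p-value that an exact permutation test over 2 and 2 libraries allows is 0.333, and the p-values given here draw on the spread of all genes that edgeR pools.

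The intervals bounded the size of any change more narrowly for the chaperones than for the ATF4 arm. The 95% interval of the fold change lay inside 1.2-fold in either direction for 23 of the 36 genes, which were 14 of 15 chaperones, 4 of 7 degradation genes, 3 of the 4 sensors and XBP1, and 2 of 10 genes of the ATF4 arm. It lay inside 1.5-fold for 32 of the 36, all but Derl3, Atf3, Atf5 and Chac1. Both limits were chosen after the values were seen.

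**Figure D3:**
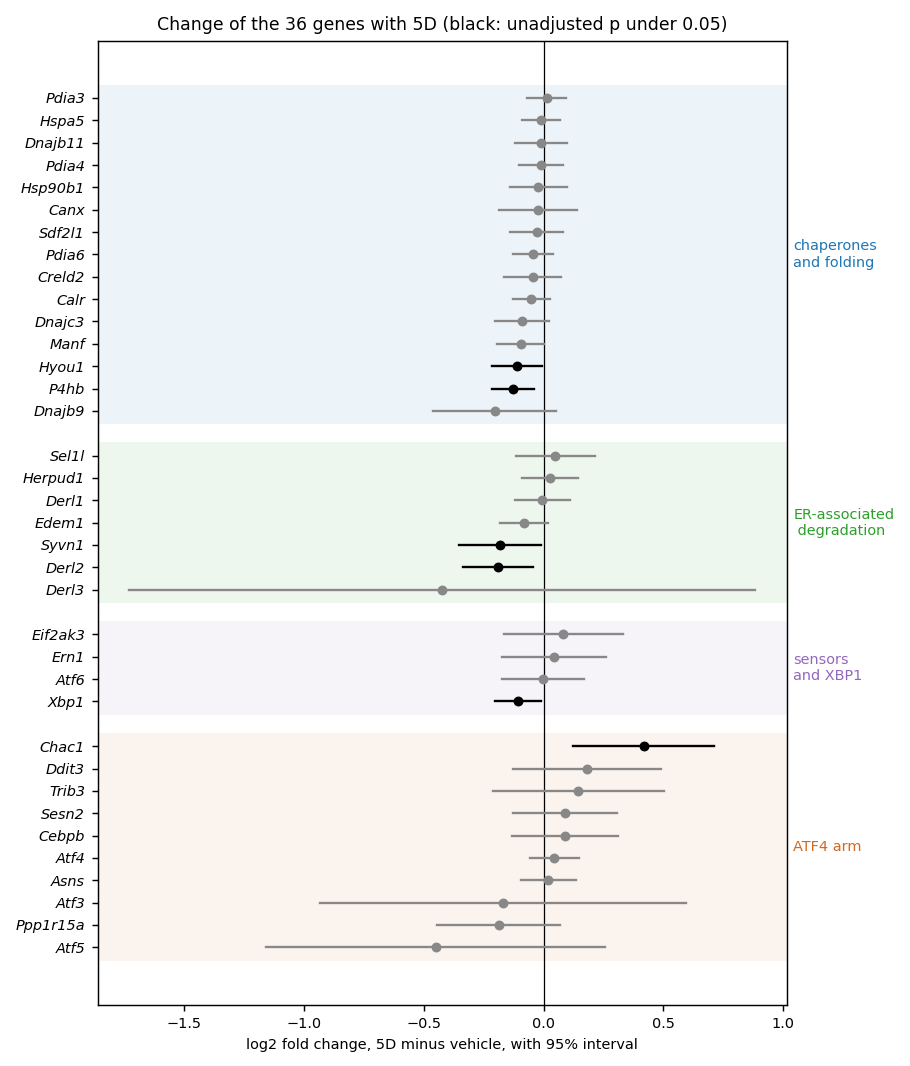
Log2 fold change of each of the 36 genes, 5D minus vehicle, with its 95% interval from the edgeR fit, grouped by role and ordered by the fold change. Black marks the 6 genes with an unadjusted p-value under 0.05. The chaperone intervals span 0 except for P4hb and Hyou1 and are narrow except for Dnajb9, and those of Derl3, Atf3 and Atf5 are wide.

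Among the chaperones and folding enzymes, 14 of 15 genes had a lower mean with 5D, none passed the adjusted threshold, and the median log2 fold change was -0.046. Both 5D libraries were the lower ones in 8 of the 15 and the higher ones in 0, beside 18.8% and 18.7% of all genes tested. Hspa5 (ENSMUSG00000026864.13, chromosome 2 from 34771970 to 34777547 on mm10) had 1334 and 1276 normalized CPM with vehicle and 1289 and 1304 with 5D. Its libraries overlapped between the groups, and the log2 fold change was -0.0099 with a 95% interval from -0.09 to 0.07 (standard error 0.036, edgeR adjusted p = 0.982). This is a change of -0.687%, with an interval from -6.04% to 4.98%. Hsp90b1 was at 1430 and 1545 normalized CPM with vehicle and at 1376 and 1551 with 5D, so that replicate 2 was the higher one in both groups. Its exons overlap 3 other genes, so that its reads could be divided in counting. Among them is 1810014B01Rik on the opposite strand, whose near-identical stretch may be this overlap itself. Canx, the membrane-bound lectin calnexin, was likewise higher in replicate 2 of both groups, with 655 and 719 against 613 and 739 normalized CPM. Leaving out 5D replicate 1 turned their log2 fold changes from -0.023 and -0.024 to 0.056 and 0.10. Calr was at 1176 and 1155 normalized CPM with vehicle and 1114 and 1134 with 5D, which did not overlap, with -0.052 as the log2 fold change (standard error 0.035, edgeR adjusted p = 0.820). Pdia3 and Pdia4, both oxidoreductases, had log2 fold changes of 0.012 and -0.012 and overlapped between the groups.

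P4hb (chromosome 11 from 120560298 to 120573253), which forms and rearranges disulfide bonds, had a smaller p-value than any other member. It was at 709 and 728 normalized CPM in the vehicle libraries and at 667 and 649 in the 5D libraries. Both 5D libraries were lower, with means of 718 ± 13.6 and 658 ± 12.8 (SD, n = 2 each). On the log2 scale the fold change was -0.13 with a 95% interval from -0.21 to -0.039 (standard error 0.040, edgeR adjusted p = 0.532, and 0.244 to 0.543 over the alternatives with all 4 libraries). Hyou1, a large chaperone that exchanges the nucleotide of BiP, was at 293 and 297 normalized CPM with vehicle and 269 and 277 with 5D, which is -0.11 on the log2 scale (standard error 0.048, edgeR adjusted p = 0.641). Manf, a secreted factor that is kept in the ER by calcium and BiP, was at 399 and 395 against 364 and 378 normalized CPM. Its groups did not overlap either, and its log2 fold change of -0.096 had an interval from -0.20 to 0.0022 (edgeR adjusted p = 0.684). Exons of Manf overlap those of 3 other genes, so that counting could have shared its reads with them. The DnaJ proteins are cochaperones of BiP. Dnajc3 was at 226 and 218 normalized CPM with vehicle and 206 and 211 with 5D. Dnajb9, with 25.2 and 24.4 against 22.1 and 21 normalized CPM, had the most negative fold change of the group at -0.21, with an interval from -0.46 to 0.050, and a near-identical gene, Gm6568. Dnajb11 overlapped between the groups, at 289 and 273 against 280 and 278 normalized CPM. Of the remaining chaperones, Pdia6 and Creld2 were lower in both 5D libraries, by log2 fold changes of -0.046 and -0.046, and Sdf2l1 overlapped at -0.030.

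**Figure D4:**
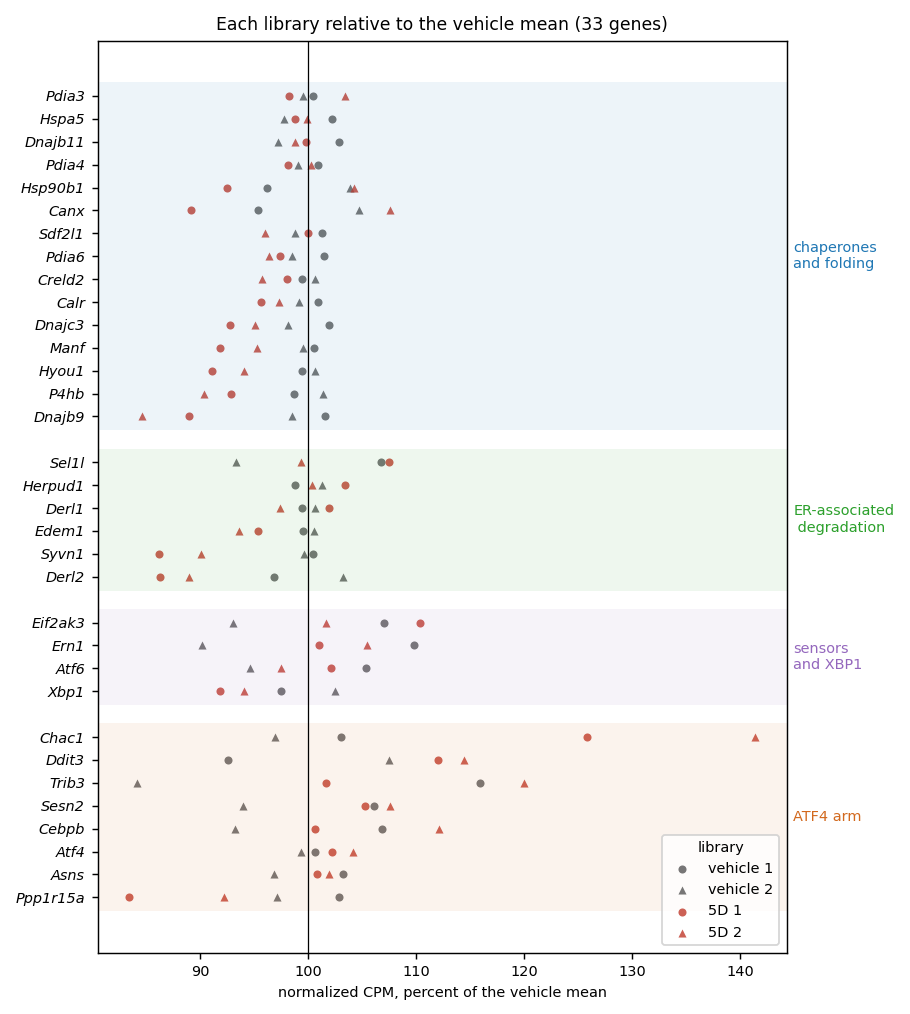
Normalized CPM of each library as a percentage of the vehicle mean of that gene, for 33 genes. Derl3, Atf3 and Atf5 are left out because of their few counts. Grey points are vehicle and red points 5D libraries, with circles for replicate 1 and triangles for replicate 2. Red points lie to the left of grey ones for P4hb, Hyou1, Derl2, Syvn1 and Xbp1 and to the right for Chac1, and points are mixed for genes such as Hspa5 and Canx.

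In ER-associated degradation, which returns misfolded proteins to the cytosol for the proteasome, 5 of 7 genes had a lower mean with 5D, 0 passed the adjusted threshold, and the median log2 fold change was -0.083, which became -0.018 without vehicle replicate 1. Derl2 (chromosome 11 from 71007164 to 71019841), a derlin, was at 104 and 111 normalized CPM with vehicle and 92.4 and 95.3 with 5D. The groups did not overlap, and the log2 fold change was -0.19 with an interval from -0.34 to -0.043 (standard error 0.067, edgeR adjusted p = 0.566). Its exons overlap Mis12 on the opposite strand, and how strand was used in counting is not given in the sources used here. Syvn1 (chromosome 19 from 6046576 to 6053712) was at 67.9 and 67.4 against 58.3 and 61.0 normalized CPM, and the log2 fold change was -0.18 (standard error 0.078, edgeR adjusted p = 0.641). Edem1, a lectin that marks misfolded glycoproteins for removal, was also lower in both 5D libraries, at 313 and 316 against 300 and 294 normalized CPM, with an interval from -0.18 to 0.019. Sel1l, the partner of HRD1, overlapped between the groups at 133 and 116 against 134 and 124 normalized CPM. Herpud1 and Derl1 overlapped as well, with log2 fold changes of 0.027 and -0.0054, and Derl1 has a near-identical stretch in Gm35638. For Derl3 no change was detected, but the interval from -1.73 to 0.88 leaves room for a large one in either direction. Its log2 fold change turned from -0.42 to 0.89 without vehicle replicate 1.

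Of the sensors and XBP1, only Xbp1 (chromosome 11 from 5520659 to 5525893) had an unadjusted p-value under 0.05. It was at 529 and 556 normalized CPM in the vehicle libraries and at 498 and 510 in the 5D libraries, so that both 5D libraries were lower. The log2 fold change was -0.11 with an interval from -0.20 to -0.0095 (standard error 0.044, edgeR adjusted p = 0.631). The 3 sensors overlapped between the groups. Ern1 was at 64.2 and 52.8 normalized CPM with vehicle and 59.1 and 61.7 with 5D. Atf6 was at 84.8 and 76.1 against 82.1 and 78.4, and Eif2ak3 at 33.2 and 28.8 against 34.2 and 31.5 normalized CPM. Both 5D libraries of Ern1 and Atf6 lay between the vehicle libraries. For the 3 sensors in this order the intervals of the log2 fold change were -0.17 to 0.26, -0.18 to 0.17 and -0.16 to 0.33. Gm43292 overlaps Eif2ak3 on the opposite strand, and the near-identical stretch found between them may be this overlap itself.

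The ATF4 arm was the role in which more genes had a higher than a lower mean, 7 against 3, and a median log2 fold change of 0.067 that became -0.018 without vehicle replicate 2. None passed the adjusted threshold. Chac1 (chromosome 2 from 119351229 to 119354381) had 370 and 300 counts with vehicle and 528 and 625 with 5D, or 15.9 and 15.0 against 19.5 and 21.9 normalized CPM. Both 5D libraries were higher, and the log2 fold change was 0.42 with an interval from 0.12 to 0.71 (standard error 0.13, edgeR adjusted p = 0.532, and 0.451 to 0.568 over the alternatives with all 4 libraries). With 1 library left out it ran from 0.33 to 0.49. Atf4 and Ddit3, which act upstream of it, had smaller log2 fold changes. Their intervals overlap that of Chac1, and whether they differed from it was not tested. Atf4 was at 319 and 315 normalized CPM with vehicle and at 324 and 330 with 5D, which did not overlap, a log2 fold change of 0.045 with an interval from -0.056 to 0.15. Ddit3 was at 14 and 16.3 against 17 and 17.3 normalized CPM, a log2 fold change of 0.18 with an interval from -0.13 to 0.49 (edgeR adjusted p = 0.848). Its exons overlap those of Mars and of 2 other gene models. Trib3 had vehicle libraries far apart, at 22.1 and 16 normalized CPM, against 19.4 and 22.9 with 5D.

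The remaining genes of the arm did not move together. Ppp1r15a, whose product GADD34 dephosphorylates eIF2α, was at 27.0 and 25.5 normalized CPM with vehicle and 21.9 and 24.2 with 5D, a log2 fold change of -0.19 with an interval from -0.44 to 0.070. Asns overlapped between the groups at 254 and 238 against 248 and 251 normalized CPM. Sesn2, a stress-induced inhibitor of mTORC1, and Cebpb, a C/EBP factor that also serves inflammation, overlapped as well, with log2 fold changes of 0.089 and 0.088. Tmem189 overlaps Cebpb on the opposite strand, and the near-identical stretch found between them may be this overlap itself. Atf5 had 70 and 62 counts with vehicle and 49 and 76 with 5D, and Atf3 had 58 and 38 against 58 and 51. At these counts the intervals of the log2 fold change ran from -1.16 to 0.26 and from -0.93 to 0.59. A difference was not detected, and a large one is not excluded.

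Set beside the promoter matches, the 9 members with an ERSE had log2 fold changes from -0.42 to -0.0099 with a median of -0.046, and 1 of them, Syvn1, had an unadjusted p-value under 0.05. Both 5D libraries were lower for 5 of these 9 genes and higher for 0, beside 18.8% and 18.7% of all genes. Outside the list, 10 further tested genes held an ERSE. Their median log2 fold change was -0.35, but 0 of them had an unadjusted p-value under 0.05 by edgeR. This median is therefore not read as a decrease. The 5 members with a CARE had log2 fold changes from -0.17 to 0.42 with a median of 0.027, and the value of Chac1 was the only one with an unadjusted p-value under 0.05. Of 293 other tested genes with a CARE, with a median of -0.0010, 10 were lower and 13 higher at that threshold. All counts of this paragraph at that threshold stand beside 3.84% lower and 3.5% higher of all genes tested.

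To place the 36 genes in their surroundings, 175 further genes were listed in 7 groups, and 0 of those tested passed the adjusted threshold. Of 32 genes for translocation into the ER and glycosylation, 25 had a lower mean, an unadjusted p-value under 0.05 was reached by 7 in the lower and 0 in the higher direction (21.9% and 0%, beside 3.84% and 3.5% of all genes tested), and the median log2 fold change was -0.061. Here too the median standard error was smaller, 0.054 beside 0.188 over all genes tested, so that smaller changes could reach the threshold. Sec11c encodes a catalytic subunit of signal peptidase. It was at 626 and 627 normalized CPM with vehicle and at 507 and 543 with 5D, which gave a log2 fold change of -0.26 (standard error 0.045, edgeR adjusted p = 0.0877). Srprb, a subunit of the receptor for the signal recognition particle, had -0.19 (edgeR adjusted p = 0.566). Of 32 further ER folding factors tested, 25 had a lower mean and 3 were lower (9.38%) and 0 higher at the unadjusted threshold, with a median of -0.068. Prkcsh, the beta subunit of glucosidase II, was at 140 and 147 against 126 and 121 normalized CPM, and Fkbp14 at 1.77 and 1.05 against 0.442 and 0.525. Of 23 further degradation genes 1 was lower and 0 higher, which is 4.35% and near the share of all genes, with a median of -0.018. This was Selenos, a selenoprotein of the retrotranslocation complex, at 141 and 151 against 120 and 132 normalized CPM.

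The eIF2 kinases, phosphatase subunits and eIF2B numbered 15, of which 0 had an unadjusted p-value under 0.05 in either direction, with a median log2 fold change of -0.012. Of 39 further ATF4 targets tested, 3 were higher and 1 lower (7.69% and 2.56%, beside 3.5% and 3.84% of all genes tested), with a median of -0.022. Slc3a2, the heavy chain of amino acid transporters, was lower at 756 and 789 against 697 and 680 normalized CPM (log2 fold change -0.17, edgeR adjusted p = 0.361). Vldlr, a lipoprotein receptor, was higher at 1.03 and 0.849 against 2.14 and 2.80 normalized CPM, and Lars, a leucyl-tRNA synthetase, was higher at 175 and 159 against 181 and 192. Of 19 cytosolic heat shock genes, 1 was lower (5.26%) and 0 higher, with a median of -0.026. This was Hspa1a, whose reads could be split with its near-identical copy Hspa1b, at 2.54 and 1.95 against 0.737 and 0.769 normalized CPM. The 13 mitochondrial chaperones and proteases had 10 genes with a higher mean, 0 past the unadjusted threshold, and a median of 0.050. With 1 library left out, the median changed sign in 4 of the 7 lists. It was -0.0076 for the mitochondrial genes without 5D replicate 2, 0.012 for the heat shock genes without vehicle replicate 1, and 0.0060 and 0.0041 for the eIF2 genes and the further ATF4 targets without 5D replicate 1. Without vehicle replicate 2 the medians for translocation, further folding and further degradation were -0.038, -0.032 and -0.0012, and the last was -0.00092 without 5D replicate 1 and -0.052 without vehicle replicate 1.

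**Figure D5:**
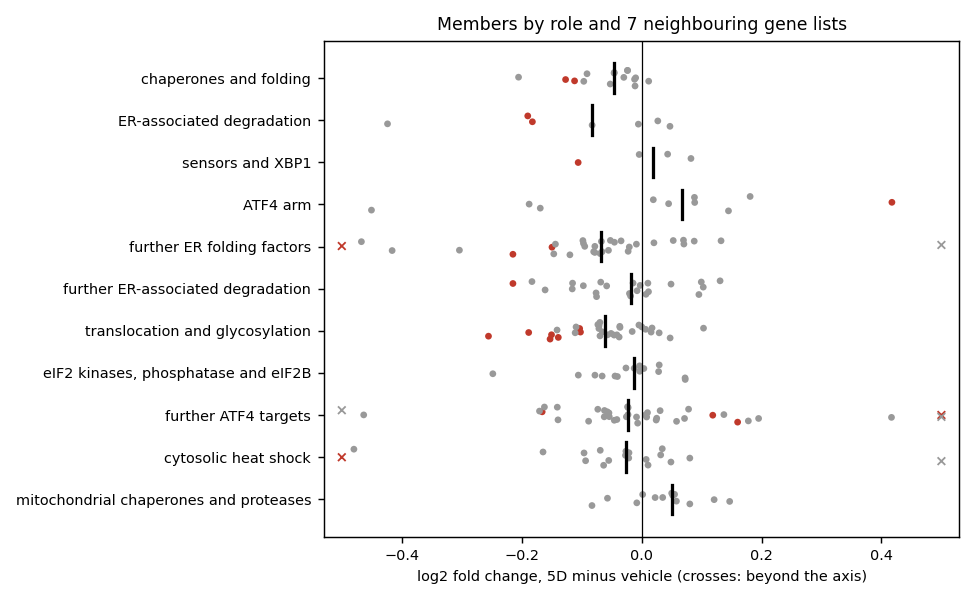
Log2 fold change, 5D minus vehicle, of each tested gene, for the 36 members by role (upper 4 rows) and for 7 neighbouring gene lists. Points are genes, red ones have an unadjusted p-value under 0.05, black bars are the medians, and crosses mark 7 genes beyond 0.5. The medians lie between -0.083 for ER-associated degradation and 0.067 for the ATF4 arm.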

How the data were processed

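RNA of sorted lung ILC2s was sequenced after a low-input cDNA amplification. The labels and the paper's methods give different amounts of input RNA, and the labels and the paper give different culture times. Per the labels and methods, the authors aligned reads with STAR 2.6.1 to mm10 with GENCODE M21 in Partek and deposited estimated counts per gene, before normalization. Between 59.3% and 63.0% of the values of a library lay within 0.01 of a whole number, and values were rounded. The dose of 5D in these cultures is not given in the sources used here.

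Upper-quartile factors scaled the counts. Genes entered the test from a mean of 1 normalized count and a sum of 10 counts upward (17651 genes, with 4903 left out). 5D was compared with vehicle by edgeR 4.0.16 in R 4.3.3, two-sided, without covariates and with Benjamini-Hochberg adjustment. Partek's Gene Set Analysis, which the authors used, was not run. The standard error was taken as the size of the log2 fold change over the square root of F, and 95% intervals use the t distribution of the fit. The code was tested on simulated data. Replicate libraries differed beyond counting error (chi-square per gene of 6.75 and 7.49, where counting error alone gives about 1), and all 4 were kept.

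The 36 members and all lists and motifs were chosen with earlier results of these data known. All members could be named, and from each further list the genes past the adjusted threshold or else the 2 with the smallest p-value in each direction among those under 0.05 unadjusted. Lengths are exon unions of GENCODE M21. Near-identical genes were found with BLAST 2.17.0 (150 nt at 95% identity), searched on both strands. Exons that overlap on opposite strands can therefore also appear as near-identical. Promoters are from RefSeq on GRCm38.p6. Alternatives were TMM factors, DESeq2 1.42.0, limma-voom (limma 3.58.1), no filter, filterByExpr, the replicate number as a block, levels per library total or with TMM factors, and leaving out each library.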

Additional observations from a re-analysis of the deposited data

How the results depend on the processing

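Under all 6 alternatives that kept the 4 libraries, and with each library left out, 0 members passed an adjusted p-value of 0.05, and the smallest adjusted p-value of a member was 0.210 (Derl2 without vehicle replicate 1). Whether same-numbered libraries were paired is not known. Their deviations had a correlation of -0.00093 over 17651 genes, a value that weighs all genes alike and cannot decide this. At the unadjusted threshold of 0.05, 4 members were lower with TMM factors, 4 with DESeq2, 6 with limma-voom and 5 with the replicate block. In each of these, 1 was higher. The block lowered the standard error from 0.054 to 0.034 for Hsp90b1 and from 0.074 to 0.043 for Canx. For Dnajb9 the block raised it from 0.116 to 0.123. With TMM factors the log2 fold changes of Derl1 and Atf6 turned to 0.0039 and 0.0050. The median under these factors was -0.014 for the 36 members, against -0.024 in the main fit, and -0.036 for the chaperones, against -0.046. Of 360 values of single members over the alternatives, 22 had the other sign, and the cause was not tested. Leaving out a library gave 0 to 6 members lower and 0 to 2 higher at the unadjusted threshold. The median log2 fold change then ran from -0.059 to -0.0084 for the 36 members, from -0.066 to -0.053 for the chaperones, from -0.10 to -0.018 for degradation, from -0.076 to 0.13 for the sensors and XBP1, and from -0.018 to 0.076 for the ATF4 arm. It ran from -0.073 to -0.032 for the further folding factors, from -0.052 to -0.00092 for further degradation genes, from -0.066 to 0.0060 for the eIF2 genes, from -0.029 to 0.0041 for further ATF4 targets, from -0.066 to 0.012 for heat shock genes and from -0.0076 to 0.071 for mitochondrial chaperones. Single log2 fold changes that turned sign ran from -0.044 to 0.019 for Hspa5, -0.11 to 0.056 for Hsp90b1, -0.17 to 0.10 for Canx, -0.027 to 0.044 for Pdia3, -0.053 to 0.027 for Dnajb11, -0.047 to 0.14 for Sel1l, -0.043 to 0.026 for Derl1 and -1.08 to 0.89 for Derl3. They ran from -0.092 to 0.19 for Ern1, -0.081 to 0.073 for Atf6, -0.015 to 0.18 for Eif2ak3, -0.35 to 0.042 for Atf3, -0.066 to 0.39 for Trib3, -0.028 to 0.063 for Asns and -0.0074 to 0.19 for Cebpb. Levels per length moved by less than the spread between libraries under both other scalings. Depth limits Derl3, Atf3 and Atf5, with at most 76 counts in a library.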
